A study of Mus musculus with 4 samples.

Results

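The genes described here are the Tex genes, mouse genes whose symbol is the prefix Tex, for testis-expressed, with a number and at most a short letter suffix. Every row of the matrix with such a symbol was taken, apart from 1 further symbol that is outside the set, which gave 26 members of 28692 genes. The rule uses the symbol alone. The cells came from the testes of C57BL/6 mice at postnatal day 63, and 4 samples were labelled, 2 Phf7 f/f and 2 Phf7 tKO. The name f/f stands for a floxed allele, and the labels spell out neither tKO nor a promoter that drives its loss. Phf7 encodes a chromatin protein with PHD fingers. Single cells were captured in droplets, and transcripts were counted near their 3' ends by unique molecular identifiers (UMI).

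The matrix held 32273 barcodes from 4 libraries, told apart by a barcode suffix from 1 to 4, with 46961803, 44447735, 48982321 and 50353091 UMI in that order. The labels do not say which suffix is which animal or genotype. The matrix was therefore handled as 1 pooled sample, without a genotype comparison and without p-values. Levels are shown for the pool and for each suffix, and the suffixes were not taken as replicates of a group. In all, 497 barcode sequences occurred in more than 1 suffix. After filtering, 29967 cells were clustered without any Tex gene. Clusters were named from marker genes as spermatogonia-like (690 cells), early spermatocyte-like (431), late spermatocyte-like (2432), round spermatid-like (7378), elongating spermatid-like (8786), Leydig-like (328), Sertoli-like (1885), interstitial mesenchymal-like (418) and macrophage-like (129), and the names stand without "like" below. The early spermatocyte class was a single cluster, and 24.9% of cells stayed unnamed. Phf7 itself was at 75.5, 420.3, 832 and 115 CPM, the UMI of a gene scaled to a common total for every class, in the round spermatids of suffixes 1 to 4.

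Spermatogenesis starts from spermatogonia, which divide by mitosis and enter meiosis as spermatocytes. In the pachytene spermatocyte the X and Y chromosomes are packed into the sex body and silenced, a process called meiotic sex chromosome inactivation. Round spermatids then build the acrosome and the flagellum, and elongating spermatids replace their histones by transition proteins and protamines while transcription ends. The symbol Tex records only where a transcript was first found, so the genes as a set share no domain or family. Their products range from meiotic recombination factors to flagellar proteins, enzyme partners and proteins of the endoplasmic reticulum.

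Of the 26 members, 20 had an entry in the RefSeq table of start-site regions (GRCm38.p6). The stretches before the RefSeq start of 5 members are shown, 1 for each germ cell class in which members had their highest level, cut where needed so that no exon of a protein-coding gene is included. The stretch of Tex101 lies directly before the start of its shorter transcript (first base 24672050) and inside the span of 2 longer transcripts, which start at 24676675 and whose own upstream stretch is not shown. All 5 lie on the minus strand and read 5' to 3' towards the gene. Capitals mark the letters searched for on both strands, which were the CRE TGACGTCA, its shorter core TGACGT, the MYB letters CAGTTG, the RFX letters GTTGCC and the CCAAT box CCAAT.
Tex13, chrX:140813434-140813683: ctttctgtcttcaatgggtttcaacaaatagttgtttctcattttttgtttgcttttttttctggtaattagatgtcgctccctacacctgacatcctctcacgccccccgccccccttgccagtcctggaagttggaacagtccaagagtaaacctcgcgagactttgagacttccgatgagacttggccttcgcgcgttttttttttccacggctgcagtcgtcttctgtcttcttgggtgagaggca
Tex101, chr7:24672051-24672300: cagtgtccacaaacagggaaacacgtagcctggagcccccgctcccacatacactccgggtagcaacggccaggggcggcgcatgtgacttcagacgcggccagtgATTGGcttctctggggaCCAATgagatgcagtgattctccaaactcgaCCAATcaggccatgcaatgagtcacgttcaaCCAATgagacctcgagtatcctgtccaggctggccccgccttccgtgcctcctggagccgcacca
Tex261, chr6:83775814-83776062: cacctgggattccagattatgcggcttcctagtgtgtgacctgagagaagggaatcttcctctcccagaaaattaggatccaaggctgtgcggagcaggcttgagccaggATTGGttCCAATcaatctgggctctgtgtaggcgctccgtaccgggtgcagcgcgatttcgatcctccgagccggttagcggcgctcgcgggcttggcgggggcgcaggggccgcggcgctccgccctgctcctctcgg
Tex33, chr15:78395913-78396162: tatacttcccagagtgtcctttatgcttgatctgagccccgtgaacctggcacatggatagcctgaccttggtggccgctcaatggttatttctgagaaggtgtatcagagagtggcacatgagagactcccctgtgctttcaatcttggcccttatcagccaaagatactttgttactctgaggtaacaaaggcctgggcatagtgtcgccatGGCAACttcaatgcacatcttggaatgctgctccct
Tex37, chr6:70918928-70919172: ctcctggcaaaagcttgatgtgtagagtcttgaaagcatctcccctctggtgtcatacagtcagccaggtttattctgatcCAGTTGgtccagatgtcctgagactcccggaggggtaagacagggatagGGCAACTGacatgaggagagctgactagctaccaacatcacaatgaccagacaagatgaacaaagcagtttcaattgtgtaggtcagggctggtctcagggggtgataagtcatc

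In Tex37 the capitals GGCAACTG hold an RFX and a MYB match that overlap. Within 250 bases before the start, the RFX letters were found in 5 of the 20 members (Tex9, Tex33, Tex35, Tex36 and Tex37), of which 4 were among the 10 members with a start-site entry and their highest level in spermatids, and in 10.5% of all 27025 start-site regions. The MYB letters were found in 3 members (Tex14, Tex37 and Tex38) and in 11.1% of all regions. Neither the CRE nor its shorter core was found in any of the 20, against 1.62% and 6.56% of all regions. The CCAAT box was looked for after the Tex101 stretch had been seen. It was present in 10 members and in 34.5% of all regions, and the 4 copies before the shorter Tex101 transcript were matched or passed by 0.918% of all regions. A match is a description of the letters and was not tested as a binding site.

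Levels are given as CPM, from UMI summed over the cells of a class. Because only 3' ends were counted, levels are compared between classes and not between genes. All 26 members had at least 50 UMI in the named classes, and 25 had their highest level in a germ cell class. The highest level was in spermatogonia for 4 members, in early spermatocytes for 5, in late spermatocytes for 3, in round spermatids for 9 and in elongating spermatids for 4. The 1 remaining member was highest in Leydig cells. Over all 16637 genes with as many UMI these classes held the highest level of 15.1%, 12.3%, 15.7%, 17.3%, 7.54% and 10.5% of genes. No member was highest in the other somatic classes. Of all genes, 3.41% were highest in Sertoli cells, 9.0% in interstitial mesenchymal cells and 9.17% in macrophages. A gene was taken as spread over all germ cell classes if the lowest germ cell class reached at least a 0.25 fraction of the highest. None of the 26 members was, a share not far from the 3.97% of all genes. For 20 members the same class was highest in every suffix, and for 8 the highest class was under 1.5 times the next.

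**Figure D1:**
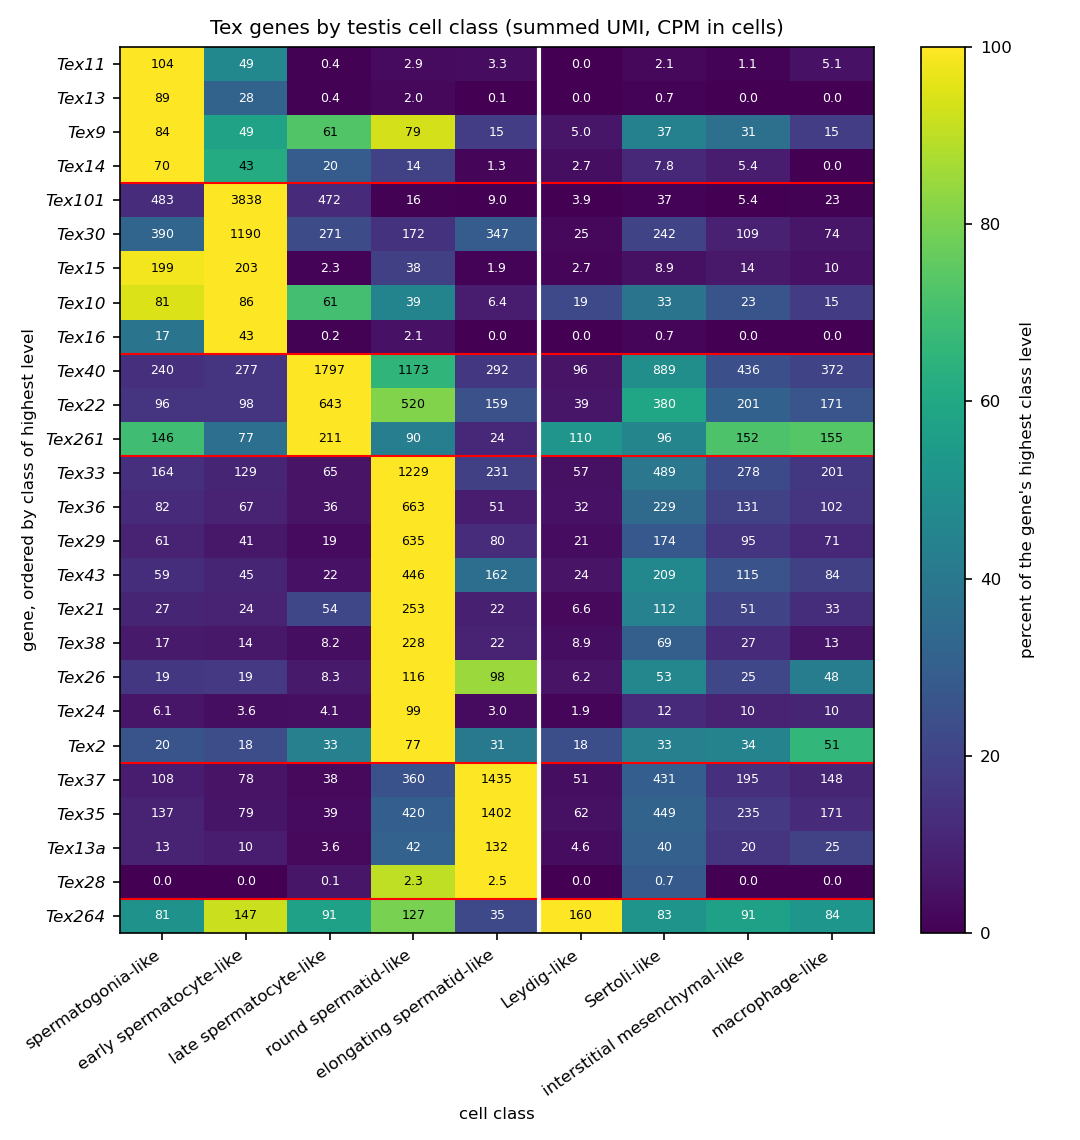
Level of each Tex gene (rows) in 9 cell classes (columns), from the UMI of the 4 suffixes pooled. Numbers are CPM, colour is the percent of the gene's highest class, red lines separate the classes of highest level and the white line separates germ from somatic classes; Tex101 reached 3838 CPM in early spermatocytes and Tex40 1797 CPM in late spermatocytes.

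Droplets also hold free RNA from other cells, so the mean UMI per cell of each member was set beside the 4 somatic classes. Tex33, the leading round spermatid member, had 9.30 UMI per cell in round spermatids, and between 0.448 and 0.733 in Leydig, Sertoli, interstitial mesenchymal and macrophage cells. Its 0.580 UMI per cell in early spermatocytes lay inside that somatic range. Such a level is called background here, and whether it came from free RNA or from doublets was not tested. All 13 members with their highest level in a spermatid class were at or below the highest somatic class in early spermatocytes, 10 of them in spermatogonia and 6 in late spermatocytes. In round spermatids none of the 13 was, and in elongating spermatids only Tex24. The high CPM of spermatid members in Sertoli cells, 489 for Tex33, came with a low UMI count per cell and a low depth, a median of 1055 UMI against 2924 in round spermatids.

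**Figure D2:**
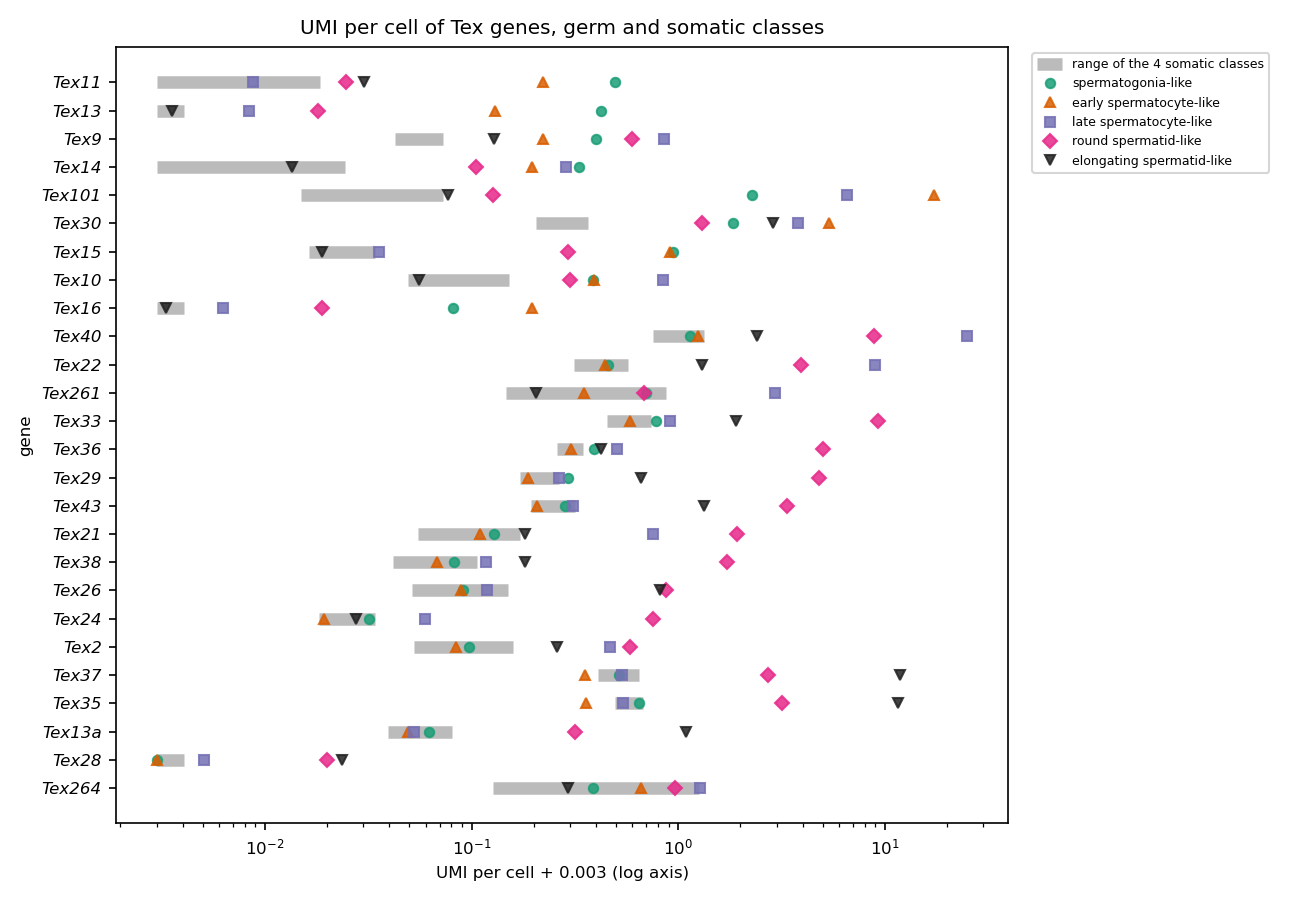
Mean UMI per cell of each Tex gene (rows) on a log axis, with 0.003 added so that a level of 0 can be drawn. Grey bars span the 4 somatic classes and symbols are the 5 germ cell classes; for the spermatid members the early spermatocyte symbols lie inside or below the grey bars and the round spermatid symbols lie to their right.

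Shares of cells showed a similar pattern. After every cell was thinned to 1000 UMI, Tex33 was detected in 58.9% of round spermatids and in 40.9% of Sertoli cells, and without thinning in 84.3% and 49.0%. Tex101 was detected in 93.2% of thinned early spermatocytes and in 0.305% to 2.88% of thinned somatic cells, and unthinned in 99.5% of early spermatocytes and 3.66% of Sertoli cells. Thinning left out 6 early spermatocytes, 352 round spermatids and 807 Sertoli cells that were below 1000 UMI. The somatic share was thus far lower for Tex101 than for Tex33.

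The 4 members that led in spermatogonia include a pair of genes with known meiotic or cytokinetic roles. Tex11 (chrX:100838648-101059667) is the counterpart of the yeast crossover protein Zip4 and is needed for synapsis and crossing over. It was at 102, 115, 93.0 and 106 CPM in the spermatogonia of suffixes 1 to 4, and at 45.9, 44.0, 44.1 and 60.7 CPM in early spermatocytes. The 2 ranges did not overlap. Tex13 (chrX:140808307-140813433, Tex13b in the annotation) was at 92.7, 93.7, 79.2 and 91.0 CPM in spermatogonia and at 33.9, 4.89, 28.3 and 43.4 CPM in early spermatocytes, where suffix 2 was the low one. Tex14 keeps the bridges between germ cells open by blocking the abscission protein CEP55. Its pooled level was 69.5 CPM in spermatogonia (95% interval 60.8 to 79.2), 42.8 CPM in early spermatocytes and 1.28 CPM in elongating spermatids. Tex9 was at 76.8, 86.5, 83.0 and 89.9 CPM in the spermatogonia of the suffixes, and its level of 78.6 CPM in round spermatids was close to these. In round spermatid cluster 12 it was higher, at 106 CPM. Tex9 overlaps exons of Mns1 on the other strand, and an effect of the overlap on its UMI was not tested. The genes most like Tex11 over clusters were Mbnl3 (Pearson r 0.833 of log2(CPM + 1)), Sohlh2 (0.831) and Luzp4 (0.808).

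Between spermatogonia and early spermatocytes 24 members had at least 50 UMI in both classes together. A member was called when the pooled levels were 2-fold or more apart and every suffix with enough cells showed the same direction. By this rule 3 members were higher in early spermatocytes and 2 were lower, while 11.5% of all genes tested were higher and 18.6% were lower. The count of lower members was 8 without the cells of highest doublet score and 14 when Tex genes and partners entered the clustering. The 2 called lower were Tex13 (log2 ratio -1.65, exact 95% interval -2.09 to -1.23) and Tex11 (-1.09, -1.44 to -0.76), the latter call being lost in 2 of 14 alternative settings. These intervals, like all intervals here, cover counting error only.

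Tex101 had the largest of the higher ratios. Tex101 (chr7:24668007-24676675) encodes a germ cell glycoprotein with a lipid anchor that sperm need for the maturation of the surface protein ADAM3. It was at 530, 497, 489 and 419 CPM in the spermatogonia of suffixes 1 to 4, at 3699, 3890.3, 3867 and 3906 CPM in early spermatocytes, and at 689, 361, 434 and 435 CPM in late spermatocytes. Early spermatocytes of every suffix lay above all values of the other classes. The log2 ratio of early spermatocytes to spermatogonia was 2.99 (2.91 to 3.07), or 7.95-fold. Towards late spermatocytes Tex101 was lower by a log2 ratio of -3.02 (-3.06 to -2.99), and towards round spermatids by a further -4.85 (-4.95 to -4.75).

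The late spermatocyte clusters were not alike for Tex101. It was at 1052 CPM in cluster 19, whose cells had a median of 30368.5 UMI and 522 CPM of the pachytene gene Piwil1, and at 104 and 59.7 CPM in clusters 9 and 14. Cluster 19 held 17.3% of the cells and 39.4% of the UMI of the class, so it weighs heavily in the summed level. Tex30 (chr1:44086613-44102441) had the same order, with 515 CPM in cluster 19 and 116 and 103 CPM in clusters 9 and 14. Tex30 was at 1059, 1302, 1257 and 1151 CPM in the early spermatocytes of suffixes 1 to 4, above its 389, 414, 372 and 388 CPM in spermatogonia. Its pooled log2 ratio was 1.61 (1.51 to 1.71). Exons of Gm29247 on the same strand overlap Tex30, and an effect of the overlap on its UMI was not tested.

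The genes whose pattern over 28 clusters was most like that of Tex101 were 4930447C04Rik (Pearson r 0.962 of log2(CPM + 1)), Stk31 (0.944) and Sycp3 (0.927), the last a component of the synaptonemal complex. These correlations describe 28 clusters of the same 4 libraries, among 13578 genes compared. Of the proteins that bind TEX101, Ly6k was also highest in early spermatocytes, with 1874 CPM there and 132 CPM in spermatogonia. Dpep3 was highest in late spermatocytes (785 CPM), Adam3 in round spermatids (780 CPM) and Ace in elongating spermatids (439 CPM).

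Tex16, Tex10 and Tex15 were the other early spermatocyte members. Tex16 (chrX:112011007-112127326) was at 14.7, 14.4, 16.3 and 20.2 CPM in the spermatogonia of the suffixes and at 53.9, 41.5, 33.6 and 43.4 CPM in early spermatocytes, on 83 UMI in all in the latter. Its log2 ratio was 1.37 (0.86 to 1.89), but it turned to -1.58 when the cells with the highest 6% of doublet scores were removed and to -0.59 when Tex genes and their partners were allowed to define clusters. Tex16 shares exon sequence with Gm45194 on the same strand. Tex10 belongs to a complex with LAS1L, PELP1, WDR18 and SENP3 that acts in ribosome production. It was at 81.5 CPM in spermatogonia and 86.2 CPM in early spermatocytes, which differed by less than counting error (log2 ratio 0.08, -0.21 to 0.37), and overlaps exons of Invs on the other strand. Las1l, an X-linked gene, was at 53.6 and 55.7 CPM in the same classes and at 1.12 CPM in late spermatocytes, where Tex10 was at 60.5 CPM. Pelp1, Wdr18 and Senp3 were highest in spermatogonia, at 67.7, 191 and 78.7 CPM.

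Tex15 had levels in spermatogonia and early spermatocytes that could not be told apart, and then a deep trough. Tex15 (chr8:33516738-33585582) is known for silencing transposons by DNA methylation in fetal germ cells and for the repair of meiotic breaks. In the 4 suffixes it was at 197, 202, 197 and 202 CPM in spermatogonia, at 186, 232, 189 and 215 CPM in early spermatocytes, at 1.56, 2.52, 2.62 and 2.50 CPM in late spermatocytes, and at 40.9, 38.0, 40.1 and 34.7 CPM in round spermatids. In every suffix late spermatocytes lay below these other classes. Per cell, Tex15 had 0.914 UMI in early spermatocytes and 0.0325 in late spermatocytes, next to 0.0133 to 0.0311 in the somatic classes. The late spermatocyte level was thus near background, although these cells were the deeper ones on average. The log2 ratio of late to early spermatocytes was -6.45 (-6.82 to -6.10), and that of round spermatids to late spermatocytes was 4.05 (3.72 to 4.39).

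The second rise of Tex15 was carried by a part of the round spermatids. It was at 90.8 CPM in cluster 7 and at 101 CPM in cluster 12, at 36.1 and 37.9 CPM in clusters 8 and 16, and at 5.52, 8.17 and 7.96 CPM in clusters 10, 11 and 21. In elongating spermatids it was back at 1.92 CPM. Its known partners in transposon silencing were scarce, with 21 UMI of Piwil4 in all named classes and at most 3.68 CPM of Spocd1. The early spermatocyte level of Tex15 rests on the cells put in that single cluster, since it was 124 CPM with a mitochondrial limit of 20%, 21.6 CPM when the highest doublet scores were removed and 49.1 CPM when Tex genes and partners entered the clustering. The direction from early to late spermatocytes held in all 14 alternatives that had both classes, with log2 ratios from -6.56 to -2.41.

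The trough was looked for in all members after it had been seen in Tex15. Of the 25 members with at least 50 UMI in both comparisons, 9 were called lower in late than in early spermatocytes and then higher in round spermatids, against 10.8% of 11284 genes. They were the X-linked Tex11, Tex13, Tex13a and Tex16, and the autosomal Tex15, Tex29, Tex35, Tex37 and Tex43. Of these, Tex13a, Tex29, Tex35, Tex37 and Tex43 were at or below the highest somatic UMI count per cell in both spermatocyte classes, so no lowering is read from them. Among X-linked genes 59.6% of 228 showed this order, and among autosomal genes 9.73% of 11013. Of 10992 autosomal genes outside the Tex set, 13 had a log2 ratio of late to early spermatocytes at or below that of Tex15, and 8 of these were called higher in round spermatids.

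X-linked genes together made up 1.79% of the UMI of spermatogonia, 1.21% in early spermatocytes, 0.126% in late spermatocytes and 1.31% in round spermatids. The share in late spermatocytes ran from 0.116% to 0.135% over the suffixes. The 5 X-linked members had low pooled levels in late spermatocytes, which were 0.412 CPM for Tex11, 0.382 for Tex13, 0.235 for Tex16, 3.56 for Tex13a and 0.147 for Tex28. Cluster 19 had the lowest X-linked share, 0.0472%, and in it Tex15 was at 0.45 CPM. The ratios of late to early spermatocytes were -6.88 (-7.81 to -6.06) for Tex11, -6.21 (-7.21 to -5.32) for Tex13 and -7.51 (-8.77 to -6.46) for Tex16 on the log2 scale.

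After meiosis the X-linked members went separate ways. Tex11 was at 2.25, 3.42, 3.02 and 2.86 CPM in the round spermatids of suffixes 1 to 4 and at 3.45, 3.26, 3.37 and 3.18 CPM in elongating spermatids, ranges that overlapped. Both were far below its level in spermatogonia. Tex13 and Tex16 were at 1.99 and 2.10 CPM in round spermatids and at 0.069 and 0.0414 CPM in elongating spermatids, with 5 and 3 UMI there. Tex13a (chrX:138208165-138209580) was at 43.4, 41.7, 37.9 and 42.7 CPM in round spermatids and at 126, 122, 139 and 139 CPM in elongating spermatids, so every elongating value lay above every round one. Tex28 (chrX:74150944-74167838) had no UMI in spermatogonia or early spermatocytes, where 3 counts would be 0.919 and 1.55 CPM. It was at 2.26 CPM in round and 2.50 CPM in elongating spermatids (log2 ratio 0.15, -0.19 to 0.49).

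**Figure D3:**
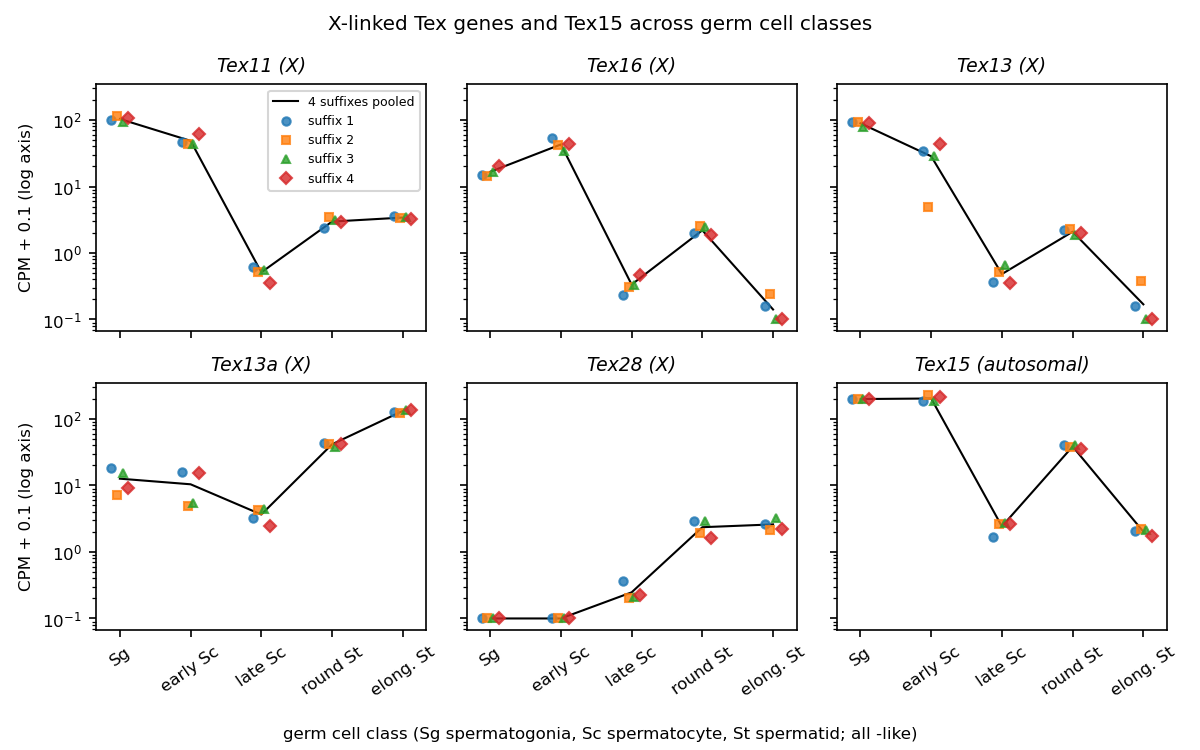
Level of the 5 X-linked Tex genes and of the autosomal Tex15 in the 5 germ cell classes, as CPM + 0.1 on a log axis. Symbols are the 4 suffixes and the line is the pool; Tex11, Tex13, Tex16 and Tex15 drop steeply into late spermatocytes, Tex28 has no UMI before them, and Tex13a reaches its highest level, 132 CPM, in elongating spermatids.

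The 3 members that led in late spermatocytes differed in where else they were found. Tex40 (chr19:6922371-6925380) is Catsperz in the annotation and encodes a subunit of the sperm calcium channel. It was at 253, 347, 233 and 295 CPM in the early spermatocytes of suffixes 1 to 4, at 1614, 1921, 1717 and 1912 CPM in late spermatocytes and at 1127, 1158, 1175 and 1233 CPM in round spermatids. The 3 ranges did not overlap. Its log2 ratio of late to early spermatocytes was 2.70 (2.57 to 2.82), but early spermatocytes had 1.25 UMI of it per cell, below the 1.33 of Sertoli cells, so their level is read as background. Exons of Kcnk4 on the same strand overlap Tex40. The genes most like it over clusters were Prps1l1 (r 0.989), Gm27045 (0.983) and Ldhal6b (0.980).

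Tex22 (chr12:113074502-113088917) was at 551, 695, 685 and 622 CPM in late spermatocytes and at 504, 500.03, 543 and 536 CPM in round spermatids. Early spermatocytes held 97.5 CPM of it, a log2 ratio of 2.72 (2.51 to 2.94), but with 0.439 UMI per cell they were inside the somatic range. Tex261 (chr6:83768885-83775813), whose yeast homologue helps to load cargo into vesicles leaving the endoplasmic reticulum, was also expressed outside the germ line. It was at 186, 223, 217 and 214 CPM in late spermatocytes, at 126, 99.1, 95.7 and 117 CPM in Leydig cells and at 60.04 to 105 CPM in early spermatocytes. Macrophages (155 CPM, 61 UMI) and interstitial mesenchymal cells (152 CPM) came next to late spermatocytes, and in suffix 1 macrophages were the highest class, at 213 CPM. Per cell it had 0.872 UMI in Leydig cells and 0.143 in Sertoli cells. For the spermatid member Tex33 these were 0.448 and 0.733, and for Tex21 they were 0.0518 and 0.168. It was called higher in late than in early spermatocytes (1.45, 1.21 to 1.69) and lower in round spermatids (-1.23, -1.28 to -1.17).

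From early to late spermatocytes 25 members were tested, and 4 were called higher and 12 lower, next to 19.3% and 33.2% of all genes. All 4 higher members were at or below the highest somatic UMI count per cell in early spermatocytes, and 5 of the 12 lower ones were so in both classes. The 4 were Tex22, Tex40, Tex261 and Tex21 (1.18, 0.76 to 1.64). For Tex261 the highest somatic class was Leydig cells (0.872 UMI per cell), where it was also expressed. Its 0.348 in early spermatocytes, next to 0.143 in Sertoli cells, therefore cannot be read as background from this comparison. The 5 lowest were Tex16, Tex11, Tex15, Tex13 and Tex101, all given above. The median gene tested had a log2 ratio of -0.35, and relative to it 5 members were higher and 6 were lower, against 24.5% and 24.9% of all genes. Per cell the deep clusters matter here, and with each cell weighted equally 7 members were higher and 7 were lower.

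Round spermatids were the class with the most members. Their clusters 16 and 21 held 8.61% and 4.77% of the cells but 38.4% and 19.1% of the UMI of the class. These 2 clusters therefore weigh heavily in the summed levels. From late spermatocytes to round spermatids 17 of 26 members were called higher and 2 were lower, against 34.0% and 34.9% of all genes. Relative to the median gene, at -0.30, the counts were 17 and 1, against 36.5% and 28.4%. The 5 highest ratios were those of Tex29 (5.09, 4.98 to 5.20), Tex38 (4.79, 4.62 to 4.97), Tex24 (4.61, 4.37 to 4.87), Tex43 (4.34, 4.24 to 4.45) and Tex33 (4.23, 4.17 to 4.30). In late spermatocytes 7 of the 17 higher members were at or below the highest somatic UMI count per cell. These were Tex11, Tex13a, Tex26, Tex29, Tex35, Tex37 and Tex43, so their ratios start from a level read as background. The 2 lower members were Tex101 and Tex261.

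Tex33 (chr15:78378400-78395912) and Tex43 encode proteins found inside the microtubules of the sperm flagellum. Tex33 was at 54.5, 69.8, 66.8 and 68.7 CPM in the late spermatocytes of suffixes 1 to 4 and at 1272, 1246, 1149 and 1240.03 CPM in round spermatids. Elongating spermatids held 243, 251, 213 and 222 CPM, between the 2. Tex36 (chr7:133587024-133602158) was at 623, 731, 644 and 659 CPM in round spermatids and at 43.5, 62.9, 48.2 and 51.9 CPM in elongating spermatids. Tex29 (chr8:11840474-11855761) was at 651, 658, 552 and 670.3 CPM in round spermatids, and at 84.3, 83.9, 80.0 and 74.3 CPM in elongating spermatids. In all 3 genes the classes were far apart in every suffix. Tex43, Tex21 and Tex38 were at 446, 253 and 228 CPM in round spermatids, and Tex26, Tex24 and Tex2 at 116, 99.3 and 76.7 CPM.

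Within the round spermatids the members peaked in different clusters. Tex24, Tex38 and Tex2 were highest in cluster 12, at 251, 426 and 147 CPM, the cluster with the most of the acrosomal gene Acrv1 (1889 CPM). Tex36 and Tex21 were highest in cluster 16, at 965 and 333 CPM. Tex33, Tex29, Tex43 and Tex26 were highest in cluster 21, at 1988, 1133, 684 and 131 CPM. The share of UMI from Tnp1, Tnp2, Prm1 and Prm2 was 0.354% in cluster 16, 1.95% in cluster 12, 4.21% in cluster 21 and 8.47% in cluster 10. Clusters 16 and 21 had medians of 26713 and 30007 UMI, against 1597.5 to 3471 in the others, so depth differed along with these peaks. Its part in them was not tested.

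**Figure D4:**
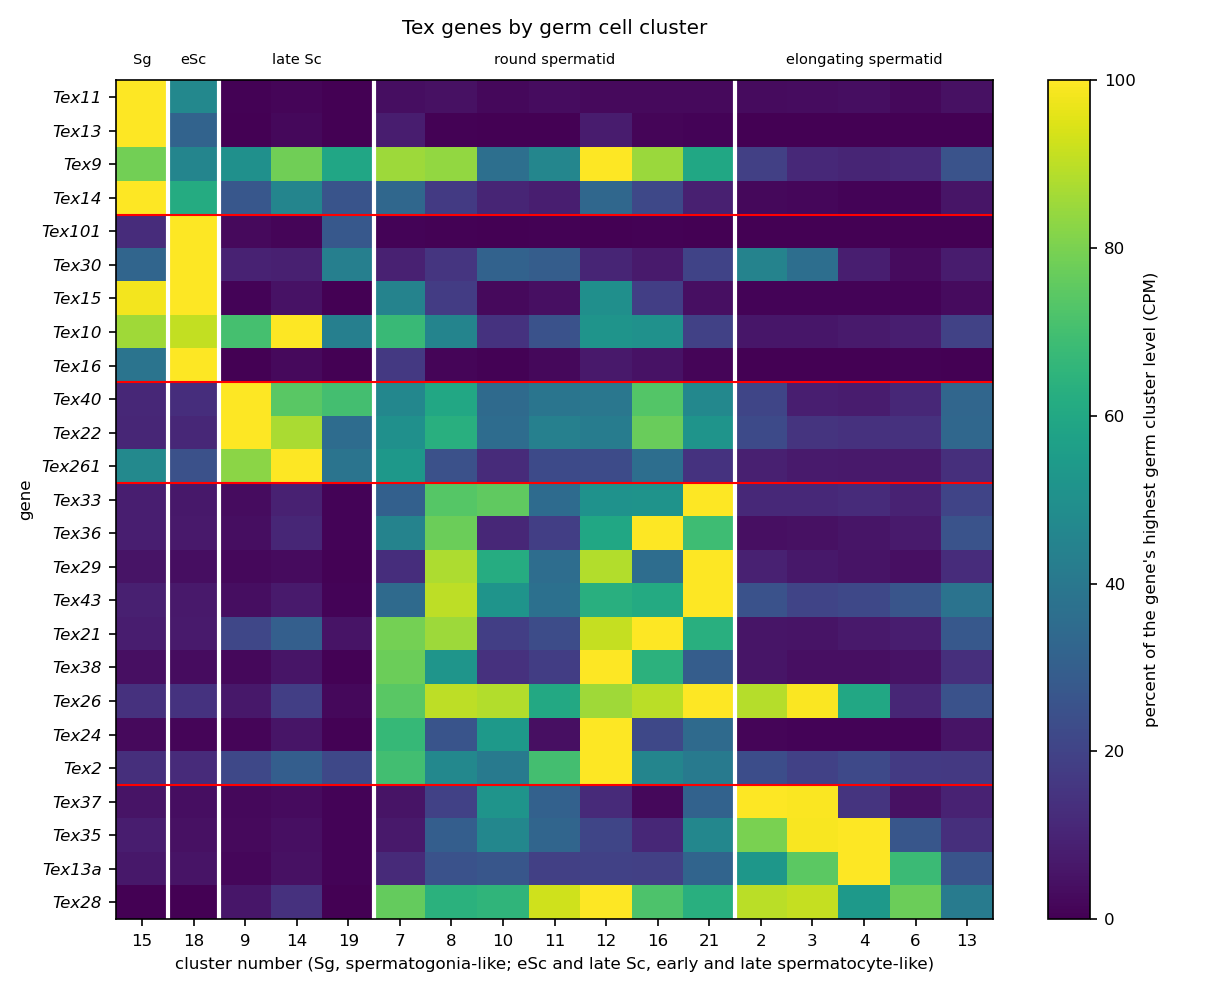
Level of the 25 Tex genes led by a germ cell class (rows) in the 17 germ cell clusters (columns), as percent of the gene's highest germ cluster. White lines separate the classes and red lines the classes of highest level; Tex24, Tex38 and Tex2 peak in cluster 12, and Tex33, Tex29, Tex43 and Tex26 in cluster 21.

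The genes most like Tex33 over clusters were Gtsf1l (r 0.991), Rnf151 (0.979) and Ccdc63 (0.974). Tex38 binds the palmitoyl transferase ZDHHC19, and Zdhhc19 was highest in round spermatids too, at 275 CPM there and 40.6 CPM in elongating spermatids. Tex2, a lipid transfer protein of the endoplasmic reticulum, had 0.580 UMI per cell in round spermatids, 0.465 in late spermatocytes and 0.155 in macrophages, and macrophages were its highest class by CPM in suffix 4.

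In elongating spermatids most genes were at a lower CPM, and the median gene had a log2 ratio of -2.00 to round spermatids. Of the 26 members 18 were called lower and 4 were higher, against 69.8% and 5.83% of all genes. The 4 were Tex37 (log2 ratio 2.00, 1.98 to 2.02), Tex35 (1.74, 1.72 to 1.76), Tex13a (1.67, 1.61 to 1.74) and Tex30 (1.01, 0.98 to 1.04). The call of Tex30 held in 12 of 16 alternative settings, with a lowest ratio of 0.44. The highest value, 3.01, was its ratio relative to the median gene, which is another measure. The 5 lowest were Tex16 (-5.66, -7.96 to -4.08), Tex24 (-5.06, -5.27 to -4.87), Tex13 (-4.85, -6.50 to -3.58), Tex15 (-4.32, -4.58 to -4.08) and Tex36 (-3.70, -3.75 to -3.65). Relative to the median gene 8 members were higher and 8 lower, against 29.4% and 23.8%. The higher ones by that scale also included Tex11, Tex28, Tex26 and Tex101, whose own CPM was not called higher.

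**Figure D5:**
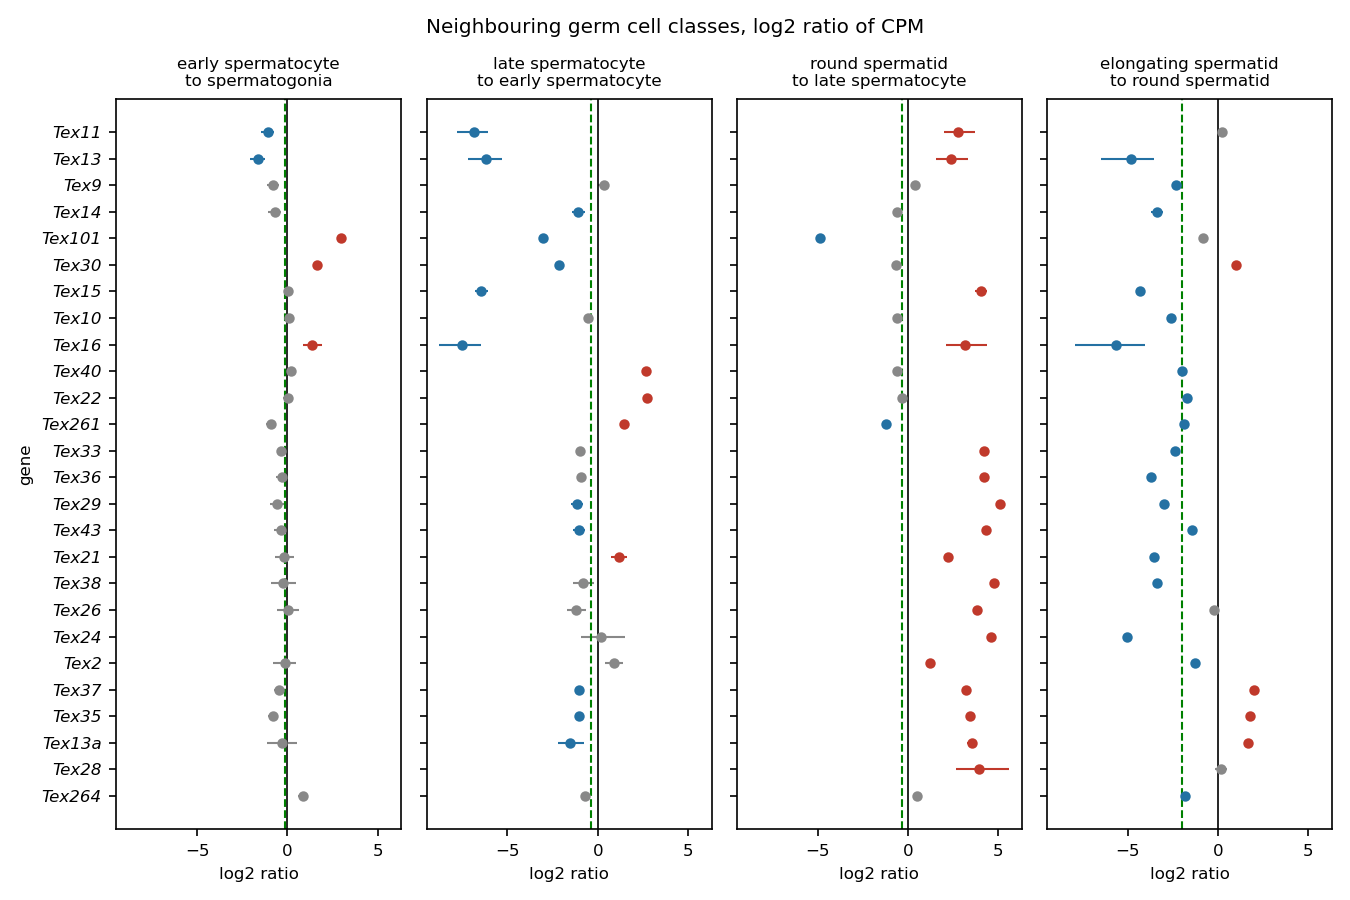
Log2 ratio of CPM between neighbouring germ cell classes for each Tex gene with at least 50 UMI in both classes. Bars are exact 95% intervals of counting error, red and blue are members called higher and lower, grey are the rest, the green dashed line is the median of all genes tested; in the last panel it lies at -2.00 and 4 members are red.

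Tex37 (chr6:70913087-70918927), another protein of the flagellar microtubules, was at 398, 334, 325 and 374 CPM in the round spermatids of suffixes 1 to 4 and at 1445, 1404, 1393 and 1491 CPM in elongating spermatids. Tex35 (chr1:157099139-157108680) was at 454, 419, 364 and 437 CPM in round and at 1360.0, 1308, 1433 and 1472 CPM in elongating spermatids. The ranges of the 2 classes did not overlap for either gene.

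The 2 genes differed between the clusters of elongating spermatids, whose order in time was not tested. In clusters 2 and 3, which had 19628 and 22867 CPM of Tnp1, Tex37 was at 2080.4 and 2071 CPM and Tex35 at 1371 and 1706 CPM. In cluster 4, with 2121 CPM of Tnp1 and 106212 CPM of Prm2, Tex37 was at 311 CPM and Tex35 at 1719 CPM. In cluster 6, with 796 CPM of Tnp1, they were at 93.8 and 460.1 CPM. Tex30 went with Tex37, at 532 and 432 CPM in clusters 2 and 3 and at 102 and 35.8 CPM in clusters 4 and 6. Tex13a, like Tex35, was highest in cluster 4, at 100.1, 142 and 189 CPM in clusters 2, 3 and 4, but at 129 CPM in cluster 6 it was still above its level in cluster 2, while Tex35 was below its own. The genes most like Tex37 over clusters were Tnp2 (r 0.994), Tnp1 (0.993) and Tfam (0.983).

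Tex264 was the member with its highest level outside the germ line when whole classes were compared. It encodes a receptor that sends pieces of the endoplasmic reticulum to autophagy. It was at 162, 154, 144 and 175 CPM in the Leydig cells of suffixes 1 to 4 and at 102, 193, 145 and 156 CPM in early spermatocytes. These ranges overlapped, and Leydig cells were the highest class in 2 of the 4 suffixes. By cluster, Tex264 reached 185 CPM in round spermatid cluster 21, above the 160 CPM of the single Leydig cluster. Per cell it had 1.26 UMI in Leydig cells, 0.124 in Sertoli cells and 1.27 in late spermatocytes. The genes most like Tex264 over clusters were Pnkd (r 0.892), Tmx1 (0.885) and Pptc7 (0.882). The other receptors of this pathway were highest in different classes. Retreg1 (Fam134b in the matrix) was at 567 CPM in elongating spermatids, Rtn3 at 422 CPM in late spermatocytes, Sec62 at 364 CPM in early spermatocytes and Ccpg1 at 78.2 CPM in Leydig cells.

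The spread between suffixes was small for the members with enough UMI. In the class of highest level, the highest suffix divided by the lowest lay between 1.06 and 1.26 for the 19 members with at least 100 UMI in 1 suffix, and between 1.12 and 1.63 for the other 7, with Tex10 (1.63), Tex16 (1.61) and Tex28 (1.58) at the top. Among the 19 the 5 largest were those of Tex22 (1.26), Tex15 (1.25), Tex21 (1.23), Tex30 (1.23) and, in Leydig cells, Tex264 (1.22). The median over all genes with at least 100 UMI in 1 suffix and a UMI in every suffix was 1.21 to 1.23 in the germ cell classes. No such median was taken for Leydig cells or for genes with fewer UMI. For Phf7 the ratio was 2.58 in early spermatocytes and 11.0 in round spermatids. Since no suffix was tied to a genotype, none of these ratios compares Phf7 tKO with Phf7 f/f.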

How the data were processed

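The deposited matrix holds UMI counts per gene and barcode for 4 libraries, made by the authors with Cell Ranger 3.0.2, per the file headers. The submitters' processing notes also name bcl2fastq 2.19.1.403 and mm10, with no annotation release stated. The samples (2 Phf7 f/f, 2 Phf7 tKO) could not be tied to suffixes, and p-values or SDs would have no group behind them. The Tex genes and gene lists were chosen with earlier results of these data known.

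Barcodes under 500 genes or above 10% mitochondrial UMI were dropped. The doublet caller Scrublet marked 1 of 29968 (0.003%), which is too few for a working caller, so doublets must be assumed to remain. Cells were clustered with scanpy 1.11.5 and leidenalg 0.10.2 (2000 variable genes without Tex, partner or mitochondrial genes, 30 components, 15 neighbours, resolution 1; Python 3.11.15). Clusters were named from 106 markers of 13 types, under a rule chosen once clusters had been looked at: at least 3 detected markers, a score of 0.5, a lead of 0.05 and a median of 1000 UMI.

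CPM came from summed UMI, with exact Poisson intervals; ratios have exact binomial intervals at 95% (scipy 1.17.1). Both cover counting error only. A call needed 50 UMI over both classes, a 2-fold difference and the same direction in every suffix with 20 cells in both. Only the ratio and call step was tested on simulated counts, with the totals of round and elongating spermatids. Named genes were, for each class, up to 6 members with the highest level, all X-linked members, the 5 highest and 5 lowest called ratios of each comparison, the 5 with the largest suffix spread, and the 3 genes with at least 200 UMI most like the leading member. The CCAAT search, the rule for shortening printed upstream stretches and the lower-then-higher pattern were set after values or sequences were seen. Gene positions come from GENCODE (GRCm38), which held 28339 of the 28692 gene IDs.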

Additional observations from a re-analysis of the deposited data

How the results depend on the processing

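No paired analysis was possible because no suffix could be tied to a sample, so replicate numbers have no columns. Of 482 log2 ratios under alternative settings 454 kept their direction and call, 26 lost the call and 2 reversed, both of Tex16 from spermatogonia to early spermatocytes: -1.58 without the highest 6% of doublet scores and -0.59 with members and partners allowed in clustering. All were ratios called in the main setting. The settings that only lowered the minimum of UMI could not change them, and these settings are also among the alternatives counted for single genes above. Of 216 counts of members 187 stayed within 1.5 times and 29 moved. Of 289 levels 165 stayed within counting error and 124 moved beyond it.

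The early spermatocyte class, a single cluster, was the most sensitive. Members highest in it numbered 3 with a mitochondrial limit of 20%, 2 without the highest doublet scores, 2 with members allowed and 3 with variable genes by Pearson residuals, a setting added after seeing the data. Members highest in spermatogonia numbered 7 without the highest doublet scores, 7 with members allowed, 8 at resolution 0.5 and 9 with at least 1000 genes per cell; the last 2 settings had no early spermatocyte class, so its comparisons have no value there. Members lower in early spermatocytes than in spermatogonia numbered 4 with the 20% limit, 8 without the highest doublet scores, 14 with members allowed and 1 relative to the median gene. Members lower in late than in early spermatocytes numbered 7 with the 20% limit, 5 without the highest doublet scores, 6 with members allowed, 7 by the mean over cells, 7 with low-depth clusters counted and 6 relative to the median gene, and those higher numbered 7 by the mean over cells. Relative to the median gene 8 members were higher and 8 lower in elongating than in round spermatids, and 1 was lower in round spermatids than in late spermatocytes.

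At a 4-fold threshold, 1 member was higher and 0 were lower in early spermatocytes than in spermatogonia, 2 were higher and 6 lower in late than in early spermatocytes, 1 was lower in round spermatids than in late spermatocytes, and 0 were higher in elongating than in round spermatids. The early spermatocyte levels without the highest doublet scores were 21.6 CPM for Tex15, 7.56 for Tex16, 2319 for Tex101 and 52.3 for Tex10.

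Leaving out 1 suffix at a time gave 0 to 1 members highest in a somatic class (0 without suffix 1), 4 to 5 in early spermatocytes, 4 to 5 in spermatogonia, 9 to 12 lower and 4 to 5 higher in late than in early spermatocytes, 2 to 3 lower in early spermatocytes than in spermatogonia, and 3 to 4 higher in elongating than in round spermatids. Tex13 lost its late spermatocyte call without suffix 1, 3 or 4, where 49, 47 and 46 UMI remained, under the minimum of 50.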
